A study of Homo sapiens with 90 samples.

Results

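A673 is an established human line from Ewing sarcoma. Its EWSR1-FLI1 fusion protein is a transcription factor that activates some genes and holds others down. The cells were exposed for 24 h in 96-well plates to the triazole fungicide fenbuconazole (FENB), the imidazole fungicide imazalil (IMAZ) or the auxin herbicide 2,4-dichlorophenoxyacetic acid (2,4-D), each at 9 concentrations between 0.001 and 10 µM, or to the DMSO vehicle, and RNA was read on Affymetrix arrays. Each chemical and concentration has 3 arrays, labelled replicates 1, 2 and 3, which the study's methods describe as experiments repeated on different batches of cells. The 81 treated arrays of the 90 columns are compared here by that number, 27 arrays a number and 9 in each chemical set, with concentration held fixed. The 9 DMSO columns were kept out of the comparison.

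Several well-known gene programmes of cultured cells follow what surrounds the cell, through the transcription factors ATF4 (amino acids), SREBP (sterols) and MTF1 (zinc) and through BMP and TGF-beta receptors. As background, uncharged tRNA raises ATF4 translation, low membrane sterol releases SREBP from INSIG proteins, and free zinc lets MTF1 bind metal response elements beside the metallothionein genes.

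A replicate number is taken here as 1 batch, which the sample labels themselves do not state. It goes with the P1, P2 or P3 mark in the sample names and with a consecutive run of sample serial numbers, so that culture, RNA extraction and array run cannot be told apart. The p-values measure the spread between arrays of these 3 numbers and not between further batches. The 3 sets of a number may come from 1 culture and are not independent of each other. Within a set and number the serial number runs with concentration. The sets were normalized separately, and levels are therefore compared within a set only. In every set 7 of 8 measured Ewing sarcoma markers lay above the upper quartile of probe sets, among them CD99, NKX2-2 and FLI1, against 1 or 2 of 15 hepatocyte markers and 2 or 3 of 13 luminal breast markers. None of the markers was called between numbers in all 3 sets. The share of each probe set's variation that went with the number had a median of 7.41%, 9.11% and 9.31% in the FENB, IMAZ and 2,4-D sets, where the number holds 7.7% of the degrees of freedom. Array medians, spike-in controls and the 3′ minus 5′ differences of ACTB and GAPDH overlapped between numbers in every set, with 1 exception. In the 2,4-D set the spike bioD did not overlap between replicates 1 and 2 and averaged 11.71 ± 0.077, 11.91 ± 0.044 and 11.82 ± 0.039 (SD, n = 9) in replicates 1, 2 and 3, and its part in the results was not tested.

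Replicate 2 had a profile that recurred in all 3 sets, while that of replicate 1 did not recur in the FENB set. The mean deviation of replicate 2 from its set's mean correlated at 0.38, 0.44 and 0.37 between the FENB and IMAZ, the FENB and 2,4-D, and the IMAZ and 2,4-D sets, over 54613 probe sets that share the array design and, within a set, the normalization. Replicate 3 matched itself at 0.23, 0.22 and 0.40. Replicate 1 matched itself at 0.34 between the IMAZ and 2,4-D sets, but at 0.08 and 0.05 where the FENB set was one of the pair. FENB replicate 1 was closer to replicate 3 of the IMAZ and 2,4-D sets, at 0.13 and 0.17. The 3 deviations of a set cancel out in each probe set, so that replicates 1 and 3 together carry the opposite of replicate 2. Matches between replicates 1 and 3 can therefore not be read apart from that of replicate 2. No test was made on these correlations. After the concentration mean was removed, all 9 replicate 2 arrays of each set correlated, on average, more with the other replicate 2 arrays of the set than with either other number. The same held of their own number for 6, 8 and 9 of 9 replicate 1 arrays and for 7, 9 and 9 of 9 replicate 3 arrays in the FENB, IMAZ and 2,4-D sets.

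**Figure D1:**
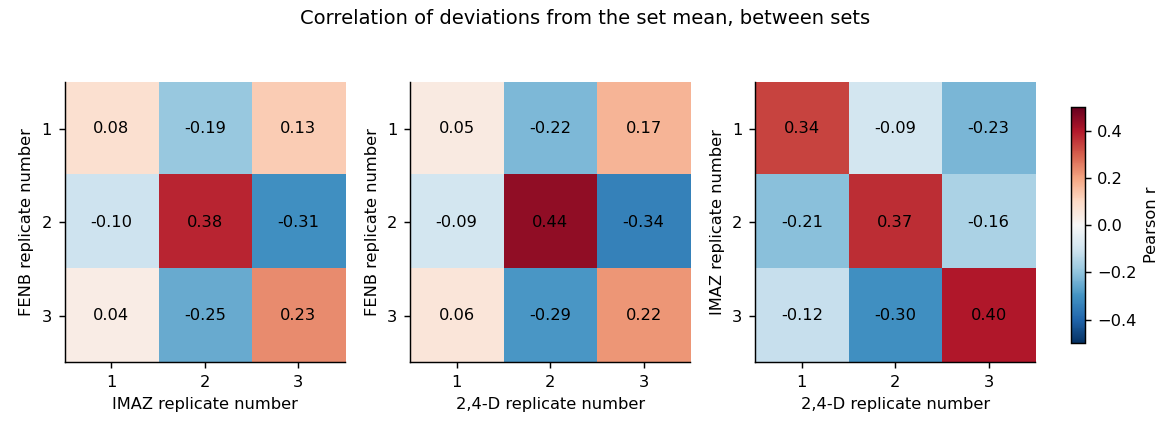
Pearson correlation, over 54613 probe sets, of the mean deviation of each replicate number from its set's mean (rows, first set) with that in another set (columns, second set). Replicate 2 against replicate 2 gave 0.38, 0.44 and 0.37, while FENB replicate 1 gave 0.08 and 0.05 against replicate 1 of the other sets.

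Between replicates 1 and 2, 515 probe sets differed in the FENB set, 716 in the IMAZ set and 574 in the 2,4-D set (limma, Benjamini-Hochberg adjusted p below 0.05). These are 0.943%, 1.31% and 1.05% of the 54613 probe sets tested, and more were higher than lower in replicate 1 in each set. Between replicates 2 and 3 the numbers were 379, 896 and 1508 (0.694%, 1.64% and 2.76%). Replicates 1 and 3 gave no call in the FENB set, where 3871 probe sets had an unadjusted p below 0.05, against 2731 expected by chance. They gave 10 calls in the IMAZ set (0.0183%) and 0.425% of probe sets in the 2,4-D set. With 1 concentration left out at a time, these were 0.00183% to 0.0128% in the IMAZ set and 0.00916% to 0.452% in the 2,4-D set. The fewest, 1 and 5 probe sets, were found without 0.1 µM, and the most without 0.001 µM. A fit without replicate 2 gave 2 and 5 probe sets.

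**Figure D2:**
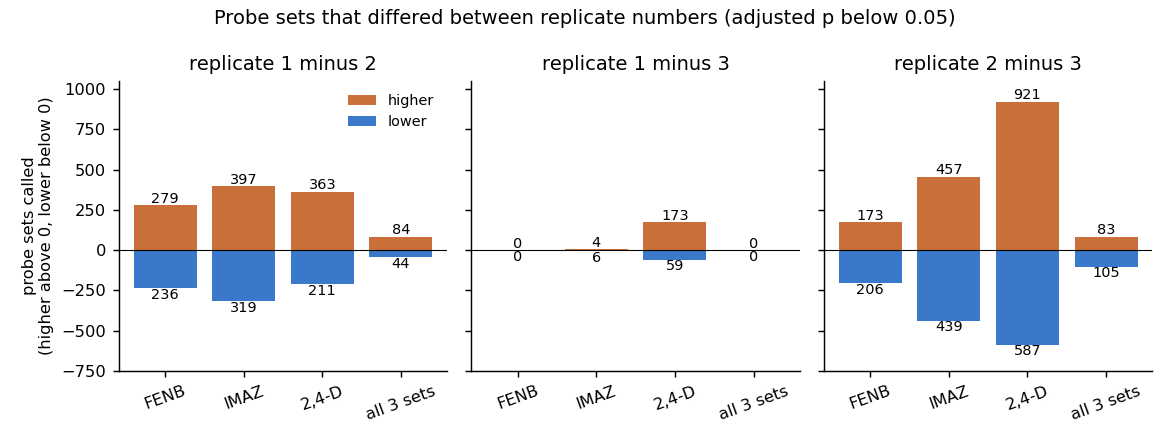
Probe sets called higher (above 0) and lower (below 0) for each difference of replicate numbers, in each chemical set and with the same sign in all 3 sets. Replicate 1 minus 3 gave 0 calls in all 3 sets, against 84 higher and 44 lower for 1 minus 2 and 83 higher and 105 lower for 2 minus 3.

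In all 3 sets with the same sign, replicate 1 minus 2 was higher for 84 probe sets (0.154%) and lower for 44 (0.0806%), and replicate 2 minus 3 was higher for 83 (0.152%) and lower for 105 (0.192%). Both differences share the replicate 2 arrays and are not independent of each other. With the 6 lowest concentrations alone, 1 minus 2 was higher for 36 probe sets and lower for 8, and 2 minus 3 higher for 21 and lower for 40. With the 3′ minus 5′ differences of ACTB and GAPDH as covariates, 1 minus 2 was higher for 45 and lower for 26, with 0.359% of probe sets called in the IMAZ set, and 2 minus 3 higher for 74 and lower for 96. Replicate 1 minus 3 had none over all concentrations, with 170 probe sets at an unadjusted p below 0.05 in each set. Replicate 2 was above both other numbers in 33 probe sets (0.0604%, 20 genes) and below both in 71 (0.13%, 51 genes). The 9 arrays of a number did not overlap, in all 3 sets, with those of the other in 36 probe sets (0.0659%) for replicates 1 and 2, in none for 1 and 3, and in 52 (0.0952%) for 2 and 3. No probe set put replicate 1 or replicate 3 apart from both others in all 3 sets. In 1 fit of all 81 arrays, which asks for no call in each set, replicates 1 and 3 did differ. There 1 minus 3 was higher for 527 probe sets (0.965%) and lower for 421 (0.771%), beside 2214 and 1892 for 1 minus 2. Of the 104 probe sets with replicate 2 apart, a median of 67.0%, 77.3% and 77.4% of the variation went with the number in the FENB, IMAZ and 2,4-D sets, which the calls themselves select for. The smallest change over the 3 sets had a median of 0.30 and a range of 0.16 to 0.71 (log2, absolute) among the 128 probe sets of 1 minus 2, and of 0.31 and 0.16 to 0.89 among those of 2 minus 3. The number effect differed between sets, by the interaction of number and set over 81 arrays, in 2 probe sets (0.00366%). These were 1 without a symbol and 1 of CLN6, and neither was among those called in all 3 sets. An unadjusted interaction p below 0.05 was found in 5040 probe sets, against 2731 expected by chance, so that smaller differences between sets are not excluded.

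The genes lowest in replicate 2 included signalling proteins. SAMD11 encodes a sterile alpha motif protein, PGF a growth factor of the VEGF family, FGFR3 a fibroblast growth factor receptor, SGK1 a serum- and glucocorticoid-regulated kinase, and NALF1 an auxiliary subunit of the NALCN sodium leak channel. SAMD11 in the FENB set had a lowest, median and highest value of 5.14, 5.52 and 5.84 in replicate 1, 4.25, 4.62 and 4.73 in replicate 2, and 5.16, 5.38 and 5.65 in replicate 3. SAMD11 in the IMAZ set had a lowest, median and highest value of 6.06, 6.27 and 6.44 in replicate 1, 5.04, 5.46 and 5.87 in replicate 2, and 6.32, 6.38 and 6.53 in replicate 3. SAMD11 in the 2,4-D set had a lowest, median and highest value of 5.86, 6.17 and 6.39 in replicate 1, 5.30, 5.46 and 5.69 in replicate 2, and 6.19, 6.37 and 6.56 in replicate 3. All 9 replicate 2 arrays lay below all replicate 1 and replicate 3 arrays in each set. SAMD11 differed by 0.98 ± 0.08, 0.80 ± 0.08 and 0.71 ± 0.07 (log2 ± SE) for replicate 1 minus 2 in the FENB, IMAZ and 2,4-D sets, and by -0.89 ± 0.08, -0.93 ± 0.08 and -0.90 ± 0.07 for replicate 2 minus 3. For SAMD11, the largest adjusted p of limma over the sets was 3.55e-06 for 1 minus 2 and 6.58e-07 for 2 minus 3.

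PGF in the FENB set had a lowest, median and highest value of 7.29, 7.46 and 7.70 in replicate 1, 6.42, 6.68 and 6.79 in replicate 2, and 7.39, 7.59 and 7.79 in replicate 3. PGF in the IMAZ set had a lowest, median and highest value of 8.18, 8.42 and 8.73 in replicate 1, 7.15, 7.50 and 7.84 in replicate 2, and 8.25, 8.46 and 8.63 in replicate 3. PGF in the 2,4-D set had a lowest, median and highest value of 8.13, 8.46 and 8.57 in replicate 1, 7.53, 7.75 and 7.84 in replicate 2, and 8.16, 8.39 and 8.55 in replicate 3. The replicate 2 arrays again lay apart from both other numbers in every set, while replicates 1 and 3 overlapped. PGF differed by 0.83 ± 0.06, 0.92 ± 0.07 and 0.70 ± 0.06 (log2 ± SE) for replicate 1 minus 2 in the FENB, IMAZ and 2,4-D sets, and by -0.93 ± 0.06, -0.92 ± 0.07 and -0.65 ± 0.06 for replicate 2 minus 3. For PGF, the largest adjusted p of limma over the sets was 2.71e-07 for 1 minus 2 and 4.87e-07 for 2 minus 3.

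SGK1 in the FENB set had a lowest, median and highest value of 9.88, 9.98 and 10.19 in replicate 1, 9.14, 9.23 and 9.58 in replicate 2, and 9.79, 10.01 and 10.27 in replicate 3. SGK1 in the IMAZ set had a lowest, median and highest value of 10.58, 10.69 and 10.93 in replicate 1, 9.91, 10.06 and 10.39 in replicate 2, and 10.51, 10.63 and 10.73 in replicate 3. SGK1 in the 2,4-D set had a lowest, median and highest value of 10.52, 10.67 and 10.74 in replicate 1, 9.90, 10.03 and 10.22 in replicate 2, and 10.63, 10.68 and 10.72 in replicate 3. The highest replicate 2 array of each set lay below the lowest array of replicates 1 and 3. SGK1 differed by 0.75 ± 0.05, 0.64 ± 0.04 and 0.63 ± 0.04 (log2 ± SE) for replicate 1 minus 2 in the FENB, IMAZ and 2,4-D sets, and by -0.74 ± 0.05, -0.54 ± 0.04 and -0.65 ± 0.04 for replicate 2 minus 3. For SGK1, the largest adjusted p of limma over the sets was 1.3e-08 for 1 minus 2 and 8.48e-08 for 2 minus 3. FGFR3 had replicate 2 medians of 5.49, 6.19 and 6.36, against 6.12, 6.97 and 7.11 in replicate 3, and replicate 2 minus 3 was -0.64, -0.83 and -0.76. NALF1, a dimmer probe set, had 2 minus 3 changes of -0.61, -0.82 and -1.07, with overlapping arrays in the FENB set. UBE2QL1, a ubiquitin-conjugating enzyme-like protein, and SERPINB8, a serine protease inhibitor, had 2 minus 3 changes of -0.60, -0.55 and -0.67 and of -0.62, -0.58 and -0.58.

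**Figure D3:**
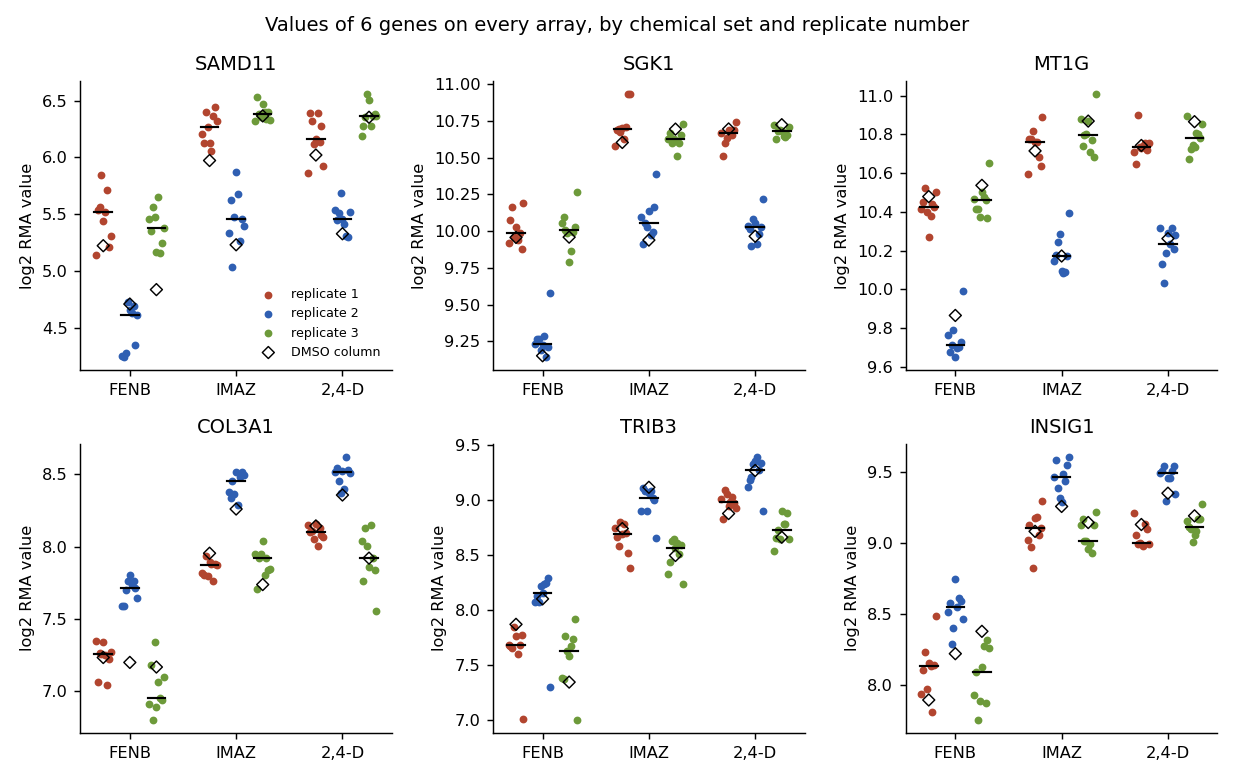
Log2 RMA values of 6 genes on every array, by chemical set and by replicate 1, 2 and 3 from left to right within a set. Filled points are the 9 treated arrays of a number, bars are their medians and open diamonds are the DMSO columns. By the medians of the treated arrays, SAMD11, SGK1 and MT1G were lowest in replicate 2, and COL3A1, TRIB3 and INSIG1 highest. In the FENB DMSO columns COL3A1 and INSIG1 were not highest in replicate 2, and SAMD11 had 4.711 and 4.838 in replicates 2 and 3.

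Of 6 measured metallothioneins, the small cysteine-rich proteins that bind zinc and copper, 5 were lower in replicate 2. The list holds 7 measured genes, these 6 and SLC30A1, the zinc exporter of the plasma membrane that answers to the same factor. In all 3 sets 5 of them were higher in replicate 1 than in 2 (MT1E, MT1F, MT1G, MT1X and MT2A), against 0.253% of 19774 genes, and these and SLC30A1 were lower in replicate 2 than in 3, against 0.324%. All 7 had the same sign in the 3 sets in both comparisons, against 21% of all genes higher for 1 minus 2 and 19.7% lower for 2 minus 3. The list's median was 0.39, 0.36 and 0.34 for 1 minus 2 and -0.49, -0.47 and -0.38 for 2 minus 3 in the FENB, IMAZ and 2,4-D sets, beside medians of all genes between 0 and 0.01. For 1 minus 3 no gene of the list was called, and its median was -0.04, -0.06 and -0.04. In every set 5 of 7 genes were lower in replicate 1 than in 3, against 13% of all genes, and none was higher. MT1G in the FENB set had a lowest, median and highest value of 10.27, 10.42 and 10.52 in replicate 1, 9.65, 9.71 and 9.99 in replicate 2, and 10.37, 10.46 and 10.65 in replicate 3. MT1G in the IMAZ set had a lowest, median and highest value of 10.59, 10.76 and 10.89 in replicate 1, 10.08, 10.17 and 10.40 in replicate 2, and 10.68, 10.80 and 11.01 in replicate 3. MT1G in the 2,4-D set had a lowest, median and highest value of 10.65, 10.74 and 10.90 in replicate 1, 10.03, 10.24 and 10.32 in replicate 2, and 10.67, 10.78 and 10.89 in replicate 3. Replicate 2 did not overlap with either other number. MT1G differed by 0.68 ± 0.05, 0.56 ± 0.04 and 0.52 ± 0.04 (log2 ± SE) for replicate 1 minus 2 in the FENB, IMAZ and 2,4-D sets, and by -0.71 ± 0.05, -0.62 ± 0.04 and -0.56 ± 0.04 for replicate 2 minus 3. For MT1G, the largest adjusted p of limma over the sets was 2.71e-07 for 1 minus 2 and 9.52e-08 for 2 minus 3.

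MT1X, MT1E and MT1F had 2 minus 3 changes of -0.49, -0.47 and -0.44, of -0.52, -0.44 and -0.38 and of -0.54, -0.50 and -0.37. These probe sets can take up transcripts of several metallothionein genes, which are near-identical copies, so that their number is not a number of independent genes. MT1M, a dim probe set, had 2 minus 3 changes of -0.23, -0.51 and -0.46 and was called in the IMAZ and 2,4-D sets but not in the FENB set. SLC30A1 had 2 minus 3 changes of -0.29, -0.25 and -0.33, called in each set, and 1 minus 2 changes of 0.23, 0.20 and 0.23, called in the IMAZ and 2,4-D sets.

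The bases upstream of MT1X and MT2A are shown because both genes were lower in replicate 2 and carry the letters of the metal response element, the site known for MTF1. Each run holds the 250 bases before the gene's start in RefSeq (GRCh38.p14), 5′ to 3′ on the gene's strand, and capitals mark the core TGCNCNC on either strand.
MT1X, chr16:56682220-56682469 (+ strand): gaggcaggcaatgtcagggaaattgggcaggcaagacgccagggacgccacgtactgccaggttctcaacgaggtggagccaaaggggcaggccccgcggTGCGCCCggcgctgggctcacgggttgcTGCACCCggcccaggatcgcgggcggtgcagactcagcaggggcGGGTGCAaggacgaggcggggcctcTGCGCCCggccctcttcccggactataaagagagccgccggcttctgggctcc
MT2A, chr16:56608334-56608583 (+ strand): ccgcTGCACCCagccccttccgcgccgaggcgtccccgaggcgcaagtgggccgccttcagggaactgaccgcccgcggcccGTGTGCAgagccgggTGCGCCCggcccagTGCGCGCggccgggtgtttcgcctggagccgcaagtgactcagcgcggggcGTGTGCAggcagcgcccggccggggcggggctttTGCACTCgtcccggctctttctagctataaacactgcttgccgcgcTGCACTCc
MT1X held 4 matches and MT2A held 7. The core is short, and 48.4% of 27303 promoters of this length held at least 1 match, while 1.7% held 4 or more. Promoters of 3 of the 7 measured genes were matched by symbol, the third being SLC30A1 with 1 match. A match describes letters and not binding.

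ID1 and ID3, inhibitors of helix-loop-helix transcription factors and direct targets of BMP signalling, were lower in replicate 2 as well. ID1 in the FENB set had a lowest, median and highest value of 8.29, 8.62 and 8.72 in replicate 1, 7.96, 8.07 and 8.22 in replicate 2, and 8.44, 8.56 and 8.72 in replicate 3. ID1 in the IMAZ set had a lowest, median and highest value of 9.40, 9.61 and 9.70 in replicate 1, 8.88, 8.98 and 9.10 in replicate 2, and 9.42, 9.47 and 9.62 in replicate 3. ID1 in the 2,4-D set had a lowest, median and highest value of 9.53, 9.69 and 9.77 in replicate 1, 8.96, 9.02 and 9.11 in replicate 2, and 9.38, 9.51 and 9.66 in replicate 3. Replicate 2 lay below both other numbers without overlap. ID1 differed by 0.53 ± 0.06, 0.62 ± 0.05 and 0.63 ± 0.04 (log2 ± SE) for replicate 1 minus 2 in the FENB, IMAZ and 2,4-D sets, and by -0.52 ± 0.06, -0.50 ± 0.05 and -0.48 ± 0.04 for replicate 2 minus 3. For ID1, the largest adjusted p of limma over the sets was 9.63e-06 for 1 minus 2 and 5.96e-06 for 2 minus 3. ID3 had changes of 0.50, 0.58 and 0.42 for 1 minus 2 and of -0.50, -0.46 and -0.37 for 2 minus 3. Of 14 measured genes of the TGF-beta list, 3 were higher and 1 lower in replicate 1 than in 2 (0.253% and 0.131% of all genes), and 2 were higher and 3 lower in replicate 2 than in 3 (0.243% and 0.324%). The 3 that were low in replicate 2 were ID1, ID3 and BAMBI, a decoy receptor, which BMP ligands also induce. TGFBI, a secreted matrix protein, was higher in replicate 2 in both comparisons, and COL1A1 for 2 minus 3.

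Genes of fibrillar collagens and of their crosslinking enzyme were higher in replicate 2. Of 26 measured matrix genes, 3 were lower in replicate 1 than in 2 (0.131% of all genes) and 4 were higher in replicate 2 than in 3 (0.243%), and none was called the other way. Those 4 were COL3A1, COL1A2, COL1A1 and LOX, the lysyl oxidase. The list's median was -0.08, -0.07 and -0.11 for 1 minus 2 and 0.10, 0.09 and 0.14 for 2 minus 3, and 18 of 26 genes had a positive 2 minus 3 change in every set, against 24.5% of all genes. COL3A1 in the FENB set had a lowest, median and highest value of 7.05, 7.26 and 7.35 in replicate 1, 7.59, 7.71 and 7.81 in replicate 2, and 6.80, 6.95 and 7.34 in replicate 3. COL3A1 in the IMAZ set had a lowest, median and highest value of 7.76, 7.88 and 7.93 in replicate 1, 8.29, 8.46 and 8.52 in replicate 2, and 7.71, 7.92 and 8.04 in replicate 3. COL3A1 in the 2,4-D set had a lowest, median and highest value of 8.0, 8.10 and 8.15 in replicate 1, 8.37, 8.52 and 8.62 in replicate 2, and 7.55, 7.92 and 8.15 in replicate 3. Replicate 2 lay above both other numbers without overlap. COL3A1 differed by -0.47 ± 0.06, -0.58 ± 0.04 and -0.40 ± 0.06 (log2 ± SE) for replicate 1 minus 2 in the FENB, IMAZ and 2,4-D sets, and by 0.68 ± 0.06, 0.54 ± 0.04 and 0.58 ± 0.06 for replicate 2 minus 3. For COL3A1, the largest adjusted p of limma over the sets was 0.000874 for 1 minus 2 and 5.67e-06 for 2 minus 3.

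COL1A2, the second chain of type I collagen, had 2 minus 3 changes of 0.47, 0.43 and 0.40 and LOX of 0.61, 0.50 and 0.47. COL1A1 had 0.43, 0.29 and 0.39, with a largest adjusted p of 0.046 in limma, and its 1 minus 2 difference was not called in all 3 sets. The largest adjusted p of COL1A1 for 2 minus 3 was 0.447 with the 6 lowest concentrations and 0.119 with the DMSO columns added. LOX, CD44 and COL1A1 are on a list of 17 measured genes held down by EWSR1-FLI1, of which 3 were higher in replicate 2 than in 3 (0.243% of all genes) and none lower (0.324%). The list ran both ways, with 8 of 17 genes higher and 6 lower in replicate 2 than in 3 in every set. The list's median was 0.04, 0.05 and 0.01, and DKK1, the WNT inhibitor, had 2 minus 3 changes of -0.35, -0.29 and -0.32, called in the IMAZ set alone. Of 24 measured genes that the fusion activates, 1 was higher in replicate 1 than in 2 (0.253% of all genes) and lower in replicate 2 than in 3 (0.324%), CCK, which encodes cholecystokinin, with 2 minus 3 changes of -0.32, -0.25 and -0.39. RGS5, a regulator of G protein signalling known from pericytes, was higher in replicate 2 on both of its named probe sets, by 0.67, 0.50 and 0.73 over replicate 3 on the first.

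**Figure D4:**
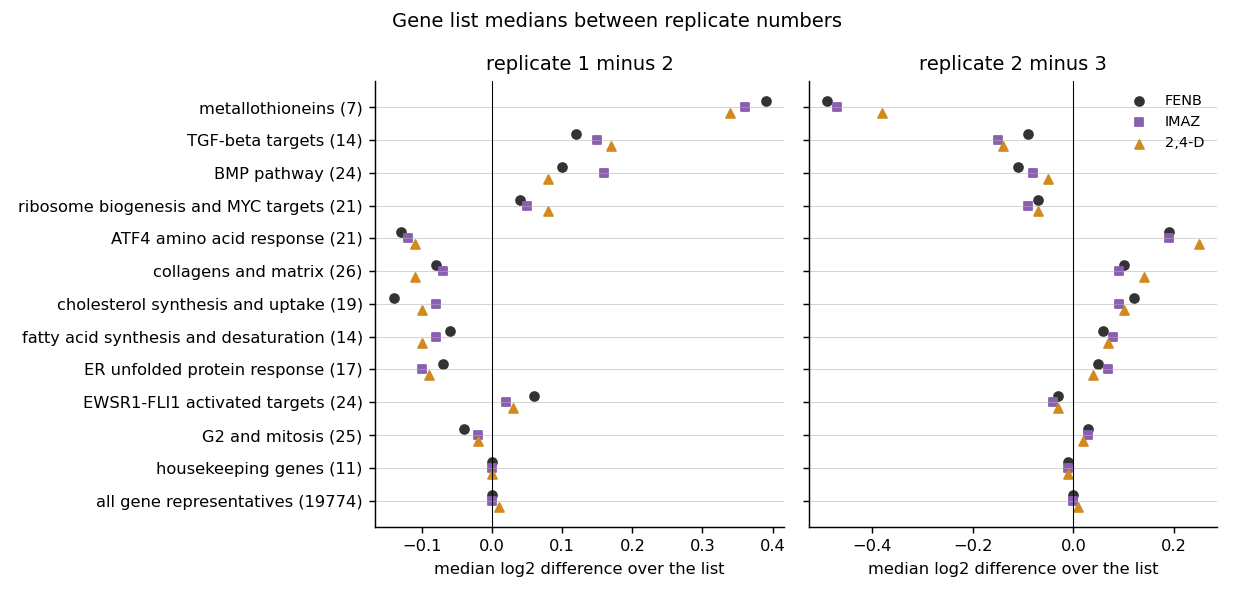
Median log2 difference of gene lists for replicate 1 minus 2 (left) and 2 minus 3 (right), 1 marker for each chemical set, with the number of measured genes in brackets (the first list includes SLC30A1, and the BMP list was added after values were seen). Metallothioneins ran from 0.34 to 0.39 for 1 minus 2 and from -0.49 to -0.38 for 2 minus 3, while all genes lay between 0 and 0.01.

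Genes of the amino acid response were among those higher in replicate 2. Of 21 measured targets of ATF4, 4 were lower in replicate 1 than in 2 (0.131% of all genes) and 4 were higher in replicate 2 than in 3 (0.243%). In both comparisons, which share the replicate 2 arrays, these were TRIB3, a pseudokinase, DDIT4, an inhibitor of mTORC1, PCK2, the mitochondrial phosphoenolpyruvate carboxykinase, and ASNS, the asparagine synthetase. The list's median was -0.13, -0.12 and -0.11 for 1 minus 2 and 0.19, 0.19 and 0.25 for 2 minus 3. A positive 2 minus 3 change in every set was seen in 19 of 21 genes, against 24.5% of all genes. For 1 minus 3 no gene of the list was called, and its median was 0.03, 0.07 and 0.13. In every set 13 of 21 genes were higher in replicate 1 than in 3, against 20.8% of all genes, and none was lower. TRIB3 in the FENB set had a lowest, median and highest value of 7.0, 7.68 and 7.84 in replicate 1, 7.30, 8.16 and 8.29 in replicate 2, and 7.0, 7.63 and 7.92 in replicate 3. TRIB3 in the IMAZ set had a lowest, median and highest value of 8.38, 8.69 and 8.80 in replicate 1, 8.65, 9.02 and 9.11 in replicate 2, and 8.24, 8.56 and 8.65 in replicate 3. TRIB3 in the 2,4-D set had a lowest, median and highest value of 8.83, 8.99 and 9.09 in replicate 1, 8.90, 9.27 and 9.39 in replicate 2, and 8.54, 8.73 and 8.90 in replicate 3. The replicate 2 medians were the highest of each set, but arrays of replicates 1 and 2 overlapped in every set. Those of replicates 2 and 3 overlapped in the FENB set. In the IMAZ and 2,4-D sets the lowest replicate 2 array lay barely above the highest of replicate 3 (8.655 over 8.649, and 8.904 over 8.9). TRIB3 differed by -0.45 ± 0.06, -0.33 ± 0.05 and -0.25 ± 0.05 (log2 ± SE) for replicate 1 minus 2 in the FENB, IMAZ and 2,4-D sets, and by 0.52 ± 0.06, 0.48 ± 0.05 and 0.51 ± 0.05 for replicate 2 minus 3. For TRIB3, the largest adjusted p of limma over the sets was 0.0122 for 1 minus 2 and 9.63e-06 for 2 minus 3.

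The change of TRIB3 at 10 µM against the other 8 concentrations was -0.74 ± 0.08, -0.32 ± 0.06 and -0.18 ± 0.07 (log2 ± SE) in the FENB, IMAZ and 2,4-D sets, beside 2 minus 3 differences of 0.52, 0.48 and 0.51. No test was made on the 10 µM change. DDIT4 in the FENB set had a lowest, median and highest value of 6.37, 7.05 and 7.22 in replicate 1, 6.76, 7.30 and 7.41 in replicate 2, and 6.26, 6.63 and 6.90 in replicate 3. DDIT4 in the IMAZ set had a lowest, median and highest value of 7.56, 7.75 and 7.88 in replicate 1, 7.93, 8.04 and 8.11 in replicate 2, and 7.24, 7.46 and 7.59 in replicate 3. DDIT4 in the 2,4-D set had a lowest, median and highest value of 7.75, 7.93 and 8.01 in replicate 1, 8.0, 8.10 and 8.21 in replicate 2, and 7.52, 7.62 and 7.70 in replicate 3. Replicate 2 lay above replicate 3 without overlap in the IMAZ and 2,4-D sets, while their arrays overlapped in the FENB set. DDIT4 had 2 minus 3 changes of 0.61, 0.59 and 0.50, PCK2 of 0.56, 0.54 and 0.54 and ASNS of 0.41, 0.31 and 0.37. The 1 minus 2 call of ASNS was lost when any 1 of the 8 concentrations below 10 µM was left out. DDIT4 also had 1 minus 3 differences called in the IMAZ and 2,4-D sets, at 0.34, 0.31 and 0.31 in the 3 sets, with an adjusted p of 0.0882 in the FENB set (limma).

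The promoter of ASNS is shown because it carries the letters of the C/EBP-ATF response element, through which ATF4 is known to act. Capitals mark the core TGATGNAA, searched on both strands of the 250 bases before the start in RefSeq (GRCh38.p14).
ASNS, chr7:97872409-97872658 (- strand): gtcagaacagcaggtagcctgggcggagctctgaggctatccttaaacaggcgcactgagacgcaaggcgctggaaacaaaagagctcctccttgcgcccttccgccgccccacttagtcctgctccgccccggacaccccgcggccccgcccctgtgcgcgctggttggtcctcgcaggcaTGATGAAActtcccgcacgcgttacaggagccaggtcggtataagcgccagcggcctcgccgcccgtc
ASNS held 1 match, and 3.19% of 27303 promoters held any. Of 18 genes of the list with a promoter in the table, 3 held the core, and TRIB3, DDIT4 and PCK2 were not among them in this window.

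One gene of sterol synthesis control was higher in replicate 2. INSIG1, which retains the SREBP complex in the endoplasmic reticulum and is itself an SREBP target, was the 1 gene called of 19 measured in the cholesterol list, lower for 1 minus 2 (0.131% of all genes) and higher for 2 minus 3 (0.243%). INSIG1 in the FENB set had a lowest, median and highest value of 7.81, 8.14 and 8.49 in replicate 1, 8.29, 8.55 and 8.74 in replicate 2, and 7.76, 8.09 and 8.32 in replicate 3. INSIG1 in the IMAZ set had a lowest, median and highest value of 8.82, 9.10 and 9.29 in replicate 1, 9.29, 9.46 and 9.60 in replicate 2, and 8.93, 9.01 and 9.22 in replicate 3. INSIG1 in the 2,4-D set had a lowest, median and highest value of 8.98, 9.0 and 9.21 in replicate 1, 9.29, 9.49 and 9.54 in replicate 2, and 9.01, 9.11 and 9.27 in replicate 3. The replicate 2 medians were the highest in every set, without overlap with either number in the 2,4-D set and with overlap in the FENB set. INSIG1 differed by -0.42 ± 0.07, -0.37 ± 0.04 and -0.41 ± 0.04 (log2 ± SE) for replicate 1 minus 2 in the FENB, IMAZ and 2,4-D sets, and by 0.47 ± 0.07, 0.40 ± 0.04 and 0.33 ± 0.04 for replicate 2 minus 3. For INSIG1, the largest adjusted p of limma over the sets was 0.00344 for 1 minus 2 and 0.000824 for 2 minus 3. The list's median was -0.14, -0.08 and -0.10 for 1 minus 2 and 0.12, 0.09 and 0.10 for 2 minus 3. In every set 15 of 19 genes were lower in replicate 1 than in 2, and 15 higher in replicate 2 than in 3, against 19.2% and 24.5% of all genes. HMGCS1, the synthase at the start of the mevalonate pathway, had 2 minus 3 changes of 0.23, 0.15 and 0.21, called in the 2,4-D set alone. Of 14 genes of fatty acid synthesis, none was called, 9 were lower in replicate 1 than in 2 in every set, and 11 higher in replicate 2 than in 3.

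Other lists held few calls, beside 0.243% of all genes called higher and 0.324% called lower for 2 minus 3. KLF10, a zinc finger factor induced by TGF-beta, and IER2 were the 2 called for 2 minus 3 of 17 measured immediate early genes. They had 2 minus 3 changes of -0.42, -0.39 and -0.38 and of -0.22, -0.22 and -0.17, and the list's median was -0.07, -0.03 and -0.05. NFKBIA, the inhibitor of NF-kappaB and the 1 called of 17 measured in its list, had -0.25, -0.34 and -0.23. PFKFB3, which sets the level of fructose 2,6-bisphosphate and was the 1 called of 27 in the glycolysis list, had -0.34, -0.33 and -0.28. CCNG2, the 1 called of 16 FOXO targets, was higher in replicate 2 than in 3 by 0.54, 0.46 and 0.41. CDC25C, a mitotic phosphatase and the 1 called of 25 G2 and mitosis genes, was higher by 0.25, 0.26 and 0.29. HERPUD1, the 1 called of 17 genes of the unfolded protein response, had 0.23, 0.23 and 0.17, and its call was lost without any 1 of the 9 concentrations. UTP20, which matures ribosomal RNA, was the 1 called of 21 genes of ribosome biogenesis and had -0.27, -0.20 and -0.26. In that list 17 of 21 genes had a negative 2 minus 3 change in every set, against 19.7% of all genes. TGFB2, a ligand, was the 1 gene of 14 measured on the YAP list called lower in replicate 1 than in 2, against 0.131% of all genes. Its changes were -0.35, -0.40 and -0.44. Among the genes most apart for 1 minus 2, QPRT, of NAD synthesis, had changes of -0.50, -0.53 and -0.53, PIPOX, a sarcosine oxidase, of -0.59, -0.57 and -0.48, and STXBP6, a SNARE-binding protein, of -0.43, -0.53 and -0.51.

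ACTB, GAPDH, CD99, NKX2-2, EGR1, CPT1A and TXNIP were named whatever their values and did not pass the test in all 3 sets. ACTB had 2 minus 3 changes of -0.05, -0.02 and -0.01, GAPDH of 0.07, 0.01 and 0.03, CD99, the Ewing sarcoma surface antigen, of 0.09, 0.02 and 0.09, and NKX2-2, a fusion target, of -0.02, -0.12 and -0.07. EGR1 had -0.07, -0.04 and 0.02, beside a 10 µM change of -0.70 ± 0.09 in the FENB set. CPT1A, the carnitine transferase of mitochondrial fat uptake, had 0.20, 0.21 and 0.19, beside a 10 µM change of 0.63 ± 0.11 in the IMAZ set. TXNIP, an arrestin that answers to glucose, had 0.21, 0.35 and 0.23. The 2 minus 3 difference of CPT1A and of TXNIP was called in the IMAZ and 2,4-D sets and not in the FENB set. Among the 104 probe sets with replicate 2 apart, the median absolute change at 10 µM against the other concentrations was 0.11, 0.08 and 0.05, beside 0.45, 0.43 and 0.38 for 2 minus 3, the size by which they were chosen. Over all probe sets the 90th percentile of the absolute change was 0.18, 0.16 and 0.16 at 10 µM and 0.16, 0.15 and 0.16 for 2 minus 3.

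The DMSO columns gave a reading of the same numbers on samples outside the fits. Of the 84 probe sets higher in replicate 1 than in 2, the DMSO difference had that sign in 77, 81 and 81 in the FENB, IMAZ and 2,4-D sets (91.7%, 96.4% and 96.4%), against 52.4%, 51.9% and 51.7% of all probe sets. Of the 44 lower ones it was 38, 42 and 44 (86.4%, 95.5% and 100%), against 47.6%, 48.1% and 48.3%. For 2 minus 3, 69, 75 and 73 of the 83 higher probe sets (83.1%, 90.4% and 88%, against 51.1%, 47.3% and 47.8%) and 88, 100 and 97 of the 105 lower ones (83.8%, 95.2% and 92.4%, against 48.8%, 52.7% and 52.2%) kept the sign. The labels call these columns common controls with the same serial numbers in all sets. The IMAZ and 2,4-D columns of a number correlated at 0.867 to 0.878 after the set means were removed, and count as the same arrays. The FENB columns correlated at 0.105 to 0.198 with those of their own number and at -0.12 to 0.126 with those of the other numbers. FENB replicate 2 had 0.103 and 0.105 with replicate 3, beside 0.105 and 0.119 with its own number. Whether the FENB columns are the same arrays could not be settled. COL3A1 had 7.23, 7.20 and 7.17 in the FENB DMSO columns of replicates 1, 2 and 3, without the difference of the treated arrays, and 7.95, 8.26 and 7.74 in those of the IMAZ set. INSIG1 had 7.896, 8.221 and 8.378 in the FENB DMSO columns, highest in replicate 3, and 9.08, 9.255 and 9.142 in those of the IMAZ set. SAMD11 had 5.224, 4.711 and 4.838 in the FENB DMSO columns. The value of replicate 3 lay below all its treated arrays of that set, of which the lowest was 5.163. In the same columns SGK1 and MT1G were lowest in replicate 2 and TRIB3 was highest.

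**Figure D5:**
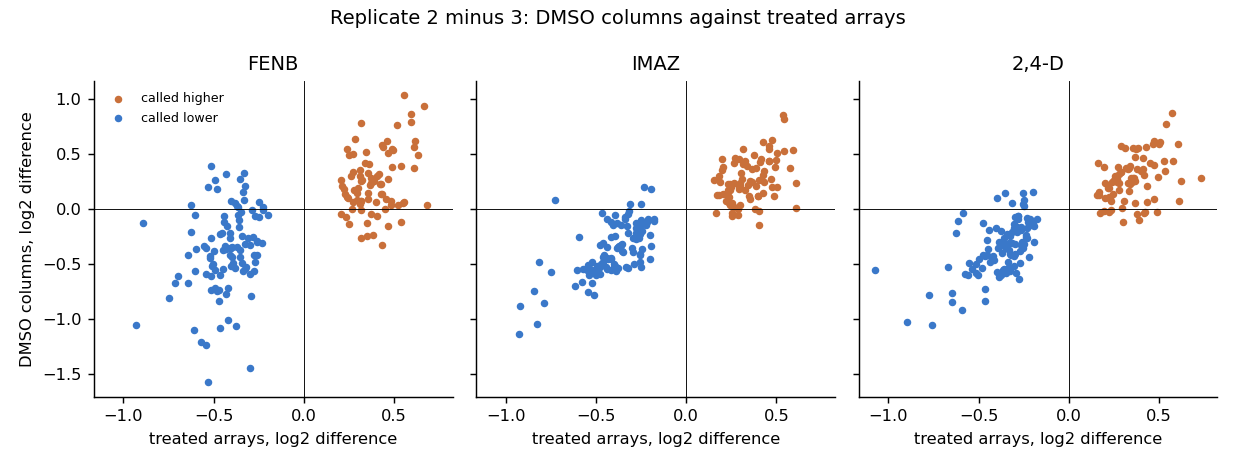
Replicate 2 minus 3 in the single DMSO columns (vertical, log2) against the treated arrays (horizontal, log2) for the probe sets called in all 3 sets, in each chemical set, where the IMAZ and 2,4-D panels share their DMSO arrays. Of the 105 called lower, 88, 100 and 97 were also lower between the DMSO columns.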

How the data were processed

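RNA of A673 cells was read on Affymetrix arrays with perfect-match probes. The authors normalized the columns of each chemical set separately by robust multi-array averaging (RMA) in Partek and deposited log2 values, which were used as deposited. Tool versions are not given in the sources used here. Arrays have no read depth, and their number limits the precision. The 102 control probe sets were left out of 54715, which left 54613. Of these, 40914 had 1 gene symbol, 864 several and 12835 none in the platform table, and NR0B1, which the naming rule holds, had no probe set there.

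Each set of 27 treated arrays was fitted in limma 3.58.1 (R 4.3.3) with the replicate number and the 9 concentrations as factors (16 residual degrees of freedom). Adjustment of p was by Benjamini-Hochberg over all probe sets. A probe set counted as called in all 3 sets where its adjusted p was below 0.05 in each, with the same sign. An interaction of number and set was fitted over 81 arrays. In gene lists a gene stands by its probe set with the highest mean (19774 genes), and lists are given as counts and medians with no test. The fit was tested on simulated data. RefSeq gave the upstream bases.

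Genes were named by rule: for each difference and direction the 5 with the largest smallest change over the sets, up to 4 called members of a list, and ACTB, GAPDH, CD99, NKX2-2, TXNIP, EGR1, CPT1A and TRIB3. BAMBI, CLN6, DKK1, HMGCS1, MT1M, MT2A and SLC30A1 fall outside it and were named after their values were seen. The comparison, its members and its 34 lists were chosen with earlier results of these data known. Alternatives changed the model, the arrays, the normalization, the probe sets and the definition of a call.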

Additional observations from a re-analysis of the deposited data

Results flagged for a closer look

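Of 414 groups of 9 arrays of the named genes, 40 held an array far from the others by Dixon's gap ratio (critical value 0.493), where chance flags about 1 in 20 groups. In 22 of the 40 the array apart was that of 10 µM. Values are log2, with the nearest other array after each.

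The arrays at 10 µM were as follows. SGK1 had 9.58 (highest of FENB replicate 2, next 9.29). PCK2 had 6.13 (lowest of FENB replicate 2, next 6.88), 6.74 (lowest of IMAZ replicate 1, next 7.0) and 7.06 (lowest of IMAZ replicate 2, next 7.44). DDIT4 had 6.37 (lowest of FENB replicate 1, next 6.93), 6.76 (lowest of FENB replicate 2, next 7.17) and 6.26 (lowest of FENB replicate 3, next 6.58). TRIB3 had 7.0 (lowest of FENB replicate 1, next 7.60), 7.30 (lowest of FENB replicate 2, next 8.07) and 8.65 (lowest of IMAZ replicate 2, next 8.90). ASNS had 9.80 (lowest of FENB replicate 2, next 10.39) and 10.65 (lowest of IMAZ replicate 2, next 10.92). HERPUD1 had 8.58 (lowest of FENB replicate 2, next 8.91). CCK had 6.70 (highest of FENB replicate 3, next 6.45). LOX had 6.26 (lowest of FENB replicate 2, next 6.63). MT1G had 9.99 (highest of FENB replicate 2, next 9.79) and 10.65 (highest of FENB replicate 3, next 10.50). TXNIP had 6.50 (lowest of IMAZ replicate 1, next 7.12). EGR1 had 7.96 (lowest of FENB replicate 1, next 8.39), 7.56 (lowest of FENB replicate 2, next 8.25), 7.81 (lowest of FENB replicate 3, next 8.35) and 8.83 (lowest of IMAZ replicate 2, next 9.24).

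At other concentrations, single arrays of these genes stood apart. NALF1 had 4.72 (lowest of IMAZ replicate 1 at 0.03 µM, next 5.17). QPRT had 4.68 (lowest of 2,4-D replicate 3 at 0.03 µM, next 5.19). PIPOX had 4.59 (highest of FENB replicate 1 at 1 µM, next 4.19). LOX had 7.14 (highest of IMAZ replicate 3 at 1 µM, next 6.98). CD44 had 7.37 (highest of IMAZ replicate 1 at 0.003 µM, next 7.17). COL1A1 had 8.23 (lowest of IMAZ replicate 2 at 0.1 µM, next 8.39). CDC25C had 7.25 (highest of 2,4-D replicate 1 at 3 µM, next 7.11). ID1 had 8.29 (lowest of FENB replicate 1 at 0.01 µM, next 8.52), 9.40 (lowest of IMAZ replicate 1 at 0.001 µM, next 9.58) and 9.62 (highest of IMAZ replicate 3 at 0.001 µM, next 9.51). TGFB2 had 4.30 (lowest of FENB replicate 2 at 0.03 µM, next 4.63). MT1G had 10.90 (highest of 2,4-D replicate 1 at 0.01 µM, next 10.76). MT1X had 11.14 (highest of 2,4-D replicate 1 at 0.01 µM, next 11.01). MT1F had 10.70 (highest of 2,4-D replicate 1 at 0.01 µM, next 10.57). UTP20 had 7.78 (lowest of FENB replicate 2 at 0.003 µM, next 7.96), 8.36 (lowest of IMAZ replicate 2 at 0.003 µM, next 8.53), 8.91 (highest of 2,4-D replicate 1 at 0.001 µM, next 8.77) and 8.46 (lowest of 2,4-D replicate 2 at 3 µM, next 8.58).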

How the results depend on the processing

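No called result changed direction. The uncalled medians of the EWSR1-FLI1 repressed list, -0.003 for 1 minus 2 and -0.001 for 2 minus 3 for changes averaged over the sets, lay on either side of 0 under the alternatives, at 0.015 and -0.024 with the DMSO columns added. For pairing by replicate number, no paired analysis was possible because the replicate number, which would be the block, is the factor compared. Arrays of the 3 numbers were matched by concentration, which was a factor in the main fit. The alternative without concentration in the model dropped that match. Values below are called probe sets in percent of all 54613, also where fewer were tested, as with 1 probe set per gene (19774 tested). Where fewer were tested, the share of tested probe sets that were called is therefore larger than the value printed. The values are given first in all 3 sets and then in the FENB, IMAZ and 2,4-D sets alone. They became smaller with the 6 lowest concentrations, that is with fewer arrays (0.0659 higher and 0.0146 lower for 1 minus 2, 0 higher and 0 lower for 1 minus 3, 0.0385 higher and 0.0732 lower for 2 minus 3, with 0.348, 0.231 and 0.255 per set for 1 minus 2, 0, 0 and 0.00183 per set for 1 minus 3, 0.214, 0.509 and 0.82 per set for 2 minus 3). They became larger with a trended and robust prior (0.234 higher and 0.17 lower for 1 minus 2, 0.00183 higher and 0.00183 lower for 1 minus 3, 0.291 higher and 0.3 lower for 2 minus 3, with 1.64, 2.27 and 2.26 per set for 1 minus 2, 0.00549, 0.207 and 1.34 per set for 1 minus 3, 1.08, 2.66 and 4.54 per set for 2 minus 3) and with dim probe sets left out, that is with fewer tests (0.223 higher and 0.152 lower for 1 minus 2, 0.00183 higher and 0 lower for 1 minus 3, 0.3 higher and 0.291 lower for 2 minus 3, with 1.66, 2.36 and 2.37 per set for 1 minus 2, 0.00183, 0.0641 and 1.25 per set for 1 minus 3, 1.24, 2.89 and 4.82 per set for 2 minus 3). With 1 probe set per gene, and so fewer tests, they were as follows (0.132 higher and 0.0897 lower for 1 minus 2, 0.00183 higher and 0 lower for 1 minus 3, 0.172 higher and 0.163 lower for 2 minus 3, with 0.804, 1.26 and 1.09 per set for 1 minus 2, 0.00183, 0.00916 and 0.472 per set for 1 minus 3, 0.646, 1.3 and 2.41 per set for 2 minus 3). Covariates for the 3′ to 5′ differences gave 0.0824 higher and 0.0476 lower for 1 minus 2 in all 3 sets, with 0.359 for 1 minus 2 and 0.00183 for 1 minus 3 in the IMAZ set. Without concentration in the model, 1 minus 3 gave 0.742 in the 2,4-D set. With the DMSO columns added, the 2,4-D set gave 1.76 for 1 minus 2 and 0.868 for 1 minus 3, and the IMAZ set 0.0293 for 1 minus 3. Array weights gave 1.79 and 0.668 for these differences in the 2,4-D set, and 1.13 for 2 minus 3 in the FENB set. Equal array medians gave 0.00916 and a further quantile normalization 0.011 for 1 minus 3 in the IMAZ set. Other definitions of a call gave the values of 1 fit of 81 arrays (4.05 higher and 3.46 lower for 1 minus 2, 0.965 higher and 0.771 lower for 1 minus 3, 5.22 higher and 5.02 lower for 2 minus 3), of the IMAZ and 2,4-D sets without the FENB set (0.308 higher and 0.154 lower for 1 minus 2, 0.00366 higher and 0.00183 lower for 1 minus 3, 0.471 higher and 0.361 lower for 2 minus 3), and of a change of at least 0.5 in each set (0.0183 higher and 0 lower for 1 minus 2, 0 higher and 0 lower for 1 minus 3, 0.011 higher and 0.0238 lower for 2 minus 3). Leaving out 1 concentration at a time, and so 3 arrays a set, gave 0.108 to 0.132 higher for 1 minus 2, 0.0385 to 0.0568 lower for 1 minus 2, 0.0879 to 0.126 higher for 2 minus 3, 0.121 to 0.161 lower for 2 minus 3, and per set 0.403 to 1.1 (FENB, 1 minus 2), 0.731 to 1.16 (IMAZ, 1 minus 2), 0.569 to 0.974 (2,4-D, 1 minus 2), 0.00183 to 0.0128 (IMAZ, 1 minus 3), 0.00916 to 0.452 (2,4-D, 1 minus 3), 0.419 to 0.692 (FENB, 2 minus 3), 0.939 to 1.32 (IMAZ, 2 minus 3), 1.37 to 2.62 (2,4-D, 2 minus 3). Fits of 2 numbers, chosen after seeing the data, gave 0.0989 higher and 0.0385 lower for 1 minus 2 (0.399, 0.646 and 0.52 per set), 0.0916 higher and 0.126 lower for 2 minus 3 (0.546, 0.958 and 0.938), and 0 higher and 0 lower for 1 minus 3 (0, 0.00366 and 0.00916). Of the comparisons of named genes with an alternative, 1497 stayed on their side of the threshold, 170 lost a call and 3, all of CPT1A, gained one. The losses were most frequent for HERPUD1, ASNS (1 minus 2), COL1A1, CDC25C, DDIT4 (1 minus 2), CCK, STXBP6 and NFKBIA. Of the list medians, 230 moved by less than the spread between sets and 22 by more. The cause of these shifts was not tested, also where fewer tests or arrays are named. Dim probe sets such as NALF1 carry less signal over background.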

Other observations

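Genes of the BMP pathway were listed after the values of some of them had been seen, so that their count is a description only. Of 24 measured genes, 4 were higher in replicate 1 than in 2 in all 3 sets (ID1, ID3, SMAD9 and BAMBI, against 0.253% of all genes), and 6 were lower in replicate 2 than in 3, these and NOG and HEY1 (0.324%). NOG encodes noggin, a secreted antagonist of BMP ligands, and had 2 minus 3 changes of -0.42, -0.75 and -0.61. HEY1, a transcriptional repressor induced by Notch and BMP signals, had -0.45, -0.44 and -0.47, and SMAD9, a receptor-activated SMAD, had -0.28, -0.29 and -0.26. SMAD6 and SMAD7, the inhibitory SMADs, had -0.20, -0.36 and -0.15 and -0.05, -0.19 and -0.24 and were not called in all 3 sets. The ligands BMP2 and BMP4 had 0.06, -0.08 and 0.06 and 0.04, -0.02 and -0.01.

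Other genes were chosen after their values were seen. GATA2, a transcription factor of blood and endothelial cells, was lower in replicate 2 on both of its called probe sets, with 2 minus 3 changes of -0.43, -0.42 and -0.36 on the one and -0.34, -0.52 and -0.50 on the other. TFRC, the transferrin receptor, had 2 minus 3 changes of -0.44, -0.28 and -0.38 and 1 minus 2 changes of 0.01, 0.02 and 0.04. Its 1 minus 2 difference was not called in all 3 sets. Its 1 minus 3 changes of -0.43, -0.26 and -0.33 were called in the 2,4-D set alone. DICER1, the ribonuclease that cuts miRNA precursors, had 2 minus 3 changes of -0.30, -0.26 and -0.34.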
